A study of Mus musculus with 24 samples.

Results

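The interferon-stimulated genes were followed through early T cell development in the thymus of mice that carry a TLX1 transgene and of their controls. They were 42 genes named from a list of known targets of type I and type II interferon, of which 40 had a probe set assigned to 1 gene, and all 40 passed the filter on low signals, among 12071 genes that did. The only probe set of Isg15 matched 2 genes and was not used, and Ifi44 was not analysed here. Where a gene had several probe sets, the one with the highest mean signal over all arrays stood for it. The list was drawn up with results of these data in view, and 6 of its genes (Rsad2, Ifit3, Oas2, Oasl2, Stat2 and Usp18) are in the study's own lists of TLX1 differences, so the TLX1 values of those 6 are given as a description.

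The tested thymocytes came from IgHμ-TLX1Tg Prkdc Scid/Scid mice (TLX1), in which the IgHμ promoter drives human TLX1, a homeobox gene of T cell leukemia. The promoter is used mainly in B cells and is weakly active in early thymocytes. The control thymocytes came from Prkdc Scid/Scid mice (control). Both genotypes lack functional Prkdc, a kinase of DNA end joining, so their thymocytes cannot complete antigen receptor rearrangement and stop at DN3. By the labels the mice were 6 to 8 weeks old on an outbred ICR background. By the methods the transgene came from mice on the CD1 background that were crossed with Prkdc Scid/Scid mice bred onto ICR, and the study lists some younger mice in 3 of the 8 pools (TLX1 pools 1 and 2 and control pool 2). Double-negative thymocytes were sorted into DN1 (CD44+ CD25-), DN2 (CD44+ CD25+) and DN3 (CD44- CD25+) cells from 4 pools of 2 to 5 mice per genotype, and each pool gave 1 array per stage, 24 arrays in all. The female pools were 1 and 4 of TLX1 and 2 and 4 of control.

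Interferons bind receptors on the cell surface, whose JAK kinases pass the signal on inside the cell. A factor that holds STAT2 and IRF9 then binds the interferon-stimulated response element and switches on many genes, several of which sense viral RNA, block its translation or degrade it. Some of these genes are also expressed at a lower level with no infection, and interferons made in the thymus act on developing T cells.

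The response element has a core of GAAA, any 2 bases and GAAA. Of the 40 genes, 29 had 1 or more promoter windows in RefSeq (GRCm38.p6), each running over 300 bases from 250 before to 50 after the annotated start. In 14 of these 29 genes (48.3%) a window held the core on either strand, against 1079 of 27025 genes with a window (3.99%). By stage result, these were 4 of the 12 genes with a window that were higher at DN2 than at DN1, 7 of the 13 that were lower and 3 of the 4 that were not called. The 4 genes of highest mean signal among those with a match are shown, since they let the element be read beside genes that differ in their stage pattern. Each is written 5′ to 3′ on the strand of the gene, with the matched core in capitals.
Igtp, chr11:58199306-58199605, plus strand: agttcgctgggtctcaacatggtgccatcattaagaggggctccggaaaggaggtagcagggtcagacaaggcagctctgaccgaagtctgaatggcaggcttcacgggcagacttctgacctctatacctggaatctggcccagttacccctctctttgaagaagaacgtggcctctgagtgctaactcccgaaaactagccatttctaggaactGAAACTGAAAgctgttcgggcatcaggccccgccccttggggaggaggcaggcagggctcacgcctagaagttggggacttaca
Oas1a, chr5:120907476-120907775, minus strand: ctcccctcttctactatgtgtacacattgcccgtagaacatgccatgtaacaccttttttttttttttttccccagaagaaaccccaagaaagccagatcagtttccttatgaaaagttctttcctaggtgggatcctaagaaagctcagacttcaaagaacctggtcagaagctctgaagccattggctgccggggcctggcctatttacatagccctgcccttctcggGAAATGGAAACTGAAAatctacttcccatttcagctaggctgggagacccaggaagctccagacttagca
Ifih1, chr2:62646206-62646505, minus strand: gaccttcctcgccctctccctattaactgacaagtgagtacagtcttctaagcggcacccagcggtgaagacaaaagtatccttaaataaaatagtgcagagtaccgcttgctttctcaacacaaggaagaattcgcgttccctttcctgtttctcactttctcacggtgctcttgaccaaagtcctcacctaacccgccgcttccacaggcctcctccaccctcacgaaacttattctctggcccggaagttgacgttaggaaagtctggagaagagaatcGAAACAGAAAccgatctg
Gbp2, chr3:142620413-142620712, plus strand: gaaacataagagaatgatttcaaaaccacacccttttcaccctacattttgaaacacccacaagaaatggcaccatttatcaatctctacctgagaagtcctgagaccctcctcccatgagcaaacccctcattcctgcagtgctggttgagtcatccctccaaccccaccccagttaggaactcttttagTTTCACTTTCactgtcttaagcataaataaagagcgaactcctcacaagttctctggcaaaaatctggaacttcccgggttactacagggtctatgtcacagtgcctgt
In Igtp, an immunity-related GTPase, the core ended 25 bases before the start. Oas1a, which makes the 2-5A messenger that activates RNase L, held 2 overlapping matches. In Ifih1, a sensor of long double-stranded RNA, the match lay after the annotated start. In Gbp2, a guanylate-binding protein, it was on the opposite strand and ended 50 bases before the start. A match is a sequence feature only, since no factor binding was measured.

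The sorted fractions had the marker genes of their gates. Cd44 had a median signal of 1572 at DN1, 114.4 at DN2 and 15.5 at DN3, and Il2ra, which encodes CD25, had 589.2, 4880.0 and 4866. Signals are linear array intensities. Signals of the endogenous Tlx1 gene ran over 4.51 to 11.4 in TLX1 arrays and 2.75 to 17.3 in control arrays, and whether its probe set detects human TLX1 is not known, so it did not check the labels. The DN1 arrays of TLX1 pool 2 and control pool 3 stood apart. Rag1, the recombinase gene of DN3 thymocytes, had signals of 3193 in TLX1 pool 2 and 3769 in control pool 3, against 35.5 to 198.6 in the other DN1 arrays, and Ptcra, the pre-TCR alpha chain, had 677.3 and 1296 against 20.8 to 102.3. They are the 2 pools in which the study lists the most cells outside the sorting gates, and some of the results that rest on them are given with and without them.

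Between DN1 and DN2 the genes split into 2 sets of equal size. At an adjusted p under 0.05 (limma, Benjamini-Hochberg over 27022 probe sets, stages compared within pools), 17 of 40 were higher at DN2 and 17 were lower, while 6 were not called. This was a stage at which 59.7% of all probe sets were called, with 28.5% higher and 31.2% lower. In all 8 pools the same way, 12 genes were higher and 10 lower, against 17.1% and 19.7% of all probe sets. The median log2 fold change of the genes was 0.030, against -0.058 over all probe sets. When each array was centred on its median instead, which moved the median of all probe sets to 0.29, the split was 20 higher and 11 lower. Without TLX1 pool 2 and control pool 3 it was 15 higher and 19 lower.

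**Figure D1:**
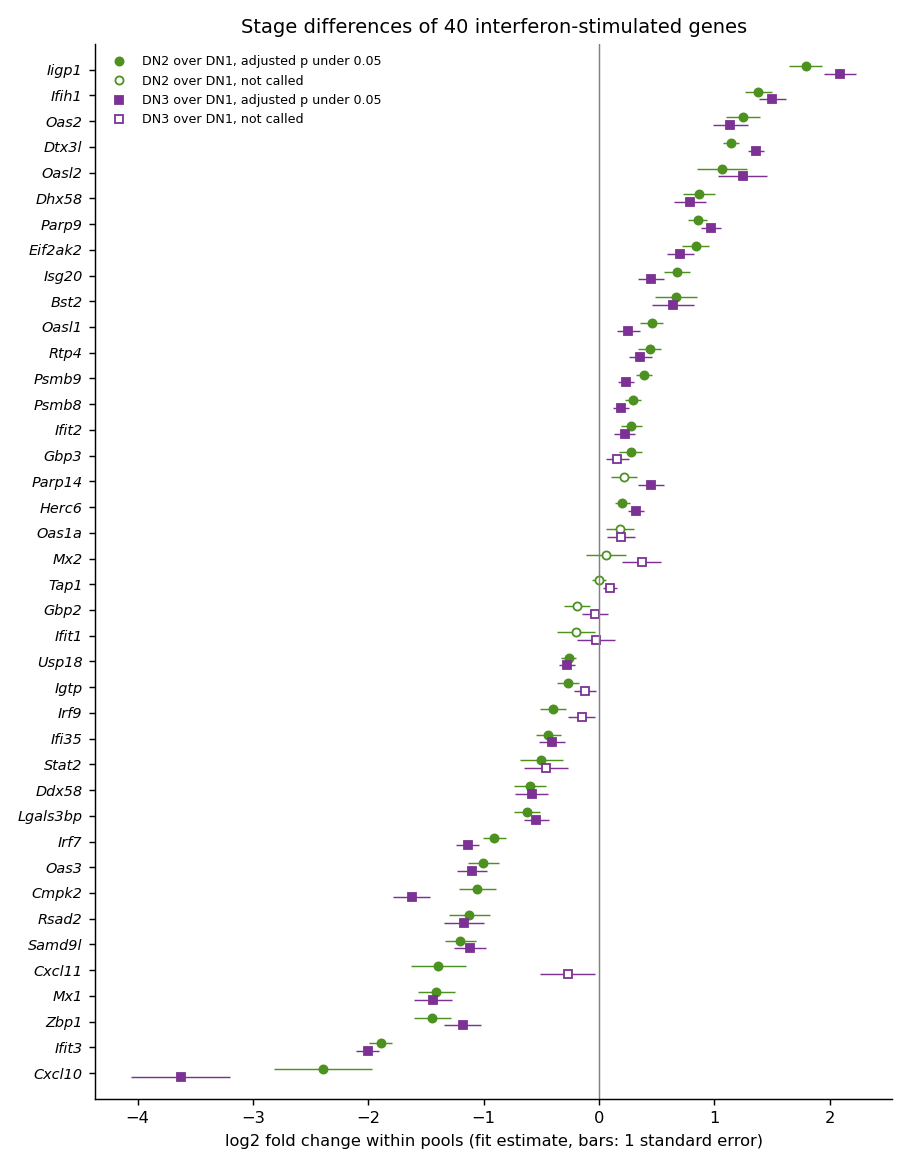
Log2 fold changes of the 40 interferon-stimulated genes for DN2 against DN1 (circles) and DN3 against DN1 (squares) on the x axis, with genes on the y axis ordered by the DN2 value. Filled symbols passed an adjusted p of 0.05, open ones did not, and bars are standard errors of the fit of 24 arrays. Ifit3 and Cxcl10 lie far to the left at both stages, and Iigp1, Ifih1 and Dtx3l far to the right.

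The signal transducers were lower at DN2. Irf7, the factor that amplifies type I interferon production, had signals of 402.0 to 1348 at DN1 (median 729.1), 210.2 to 641.4 at DN2 (median 397.6) and 172.9 to 460.5 at DN3 (median 366.3). Its log2 fold change was -0.91 at DN2 against DN1 (SE 0.0972, limma adjusted p = 1.97e-06) and -1.14 at DN3 against DN1. Irf9 and Stat2, the DNA-binding and the activating partner of the response factor, fell by 0.40 and 0.50 on the log2 scale at DN2, and Stat2 lost the call without TLX1 pool 1, 3 or 4 or control pool 3 (limma adjusted p of 0.0777 to 0.122) and under both other scalings. All 3 measured transducers were thus lower at DN2, but only Irf7 was still called at DN3 against DN1.

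Among the sensors, the cytosolic RNA sensors did not move together. Ifih1 (MDA5) had signals of 583.4, 378, 555 and 490.0 in TLX1 pools 1 to 4 and of 460.2, 413.5, 228.7 and 425 in control pools 1 to 4 at DN1. At DN2 its signals were 1224, 1303, 1436 and 1028 in TLX1 pools 1 to 4 and 1257, 850.0, 1044 and 889 in control pools 1 to 4. Every DN2 array was above every DN1 array. The log2 fold change was 1.38 at DN2 against DN1 (SE 0.117, limma adjusted p = 1.89e-07) and 1.50 at DN3 against DN1. Dhx58 (LGP2), which modulates MDA5 and RIG-I, rose by 0.86 (SE 0.138, limma adjusted p = 8.84e-05). Its differences within pools ran over 0.444 to 1.846, the largest in control pool 3. Eif2ak2 (PKR), which halts translation on binding double-stranded RNA, rose by 0.84 (SE 0.119). Ddx58 (RIG-I), the sensor of short RNA with a triphosphate end, was lower instead, with a log2 fold change of -0.60 (SE 0.141, limma adjusted p = 0.00212). It was lower in 7 of 8 pools and higher in control pool 3, at 251.9 at DN1 and 337.4 at DN2. Zbp1, a sensor of Z-form nucleic acid, had a median signal of 586.9 at DN1, 187.9 at DN2 and 243.9 at DN3. It fell by 1.45 at DN2 (SE 0.158, limma adjusted p = 2.45e-06), and by 1.75 without TLX1 pool 2 and control pool 3.

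**Figure D2:**
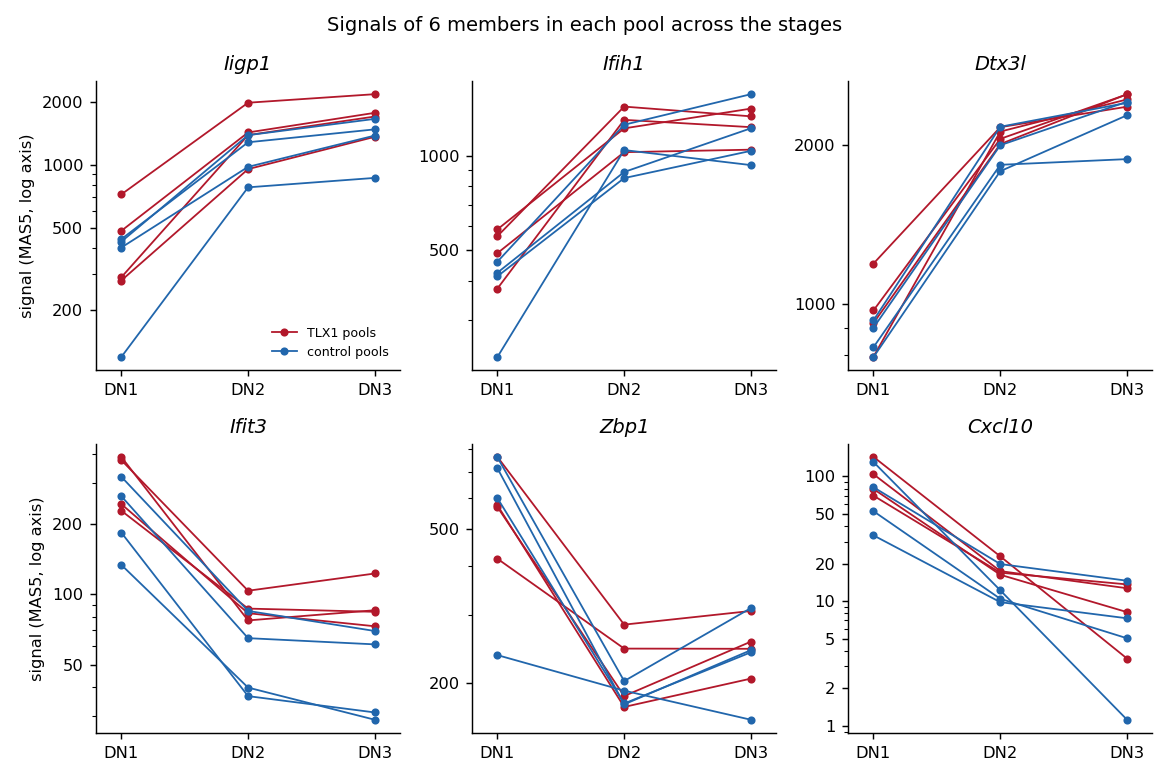
Signals (y axis, log scale) of 6 interferon-stimulated genes at DN1, DN2 and DN3 (x axis), with 1 line per pool, TLX1 pools in red and control pools in blue. Iigp1, Ifih1 and Dtx3l lie higher at DN2 and DN3 than at DN1 in each pool, and Ifit3, Zbp1 and Cxcl10 lie lower.

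Genes of 1 family differed in direction. Of the 10 measured genes of the IFIT, OAS and Mx families, 4 were higher at DN2, 3 lower and 3 not called. Ifit3, a partner of Ifit1 in binding foreign RNA, had signals of 244, 228, 376 and 388 in TLX1 pools 1 to 4 and of 264, 184, 133.8 and 319 in control pools 1 to 4 at DN1. At DN2 it had 83.0, 86.9, 103.6 and 77.3 in TLX1 pools and 64.9, 36.6, 39.9 and 84.9 in control pools. At DN3 it had 73.0, 84.2, 122.8 and 85.5 in TLX1 pools and 61.0, 31.2, 29.0 and 69.6 in control pools. No DN2 or DN3 array reached the lowest DN1 array. The log2 fold change was -1.89 at DN2 against DN1 (SE 0.098, limma adjusted p = 1.94e-09), the lowest adjusted p of the 40 genes, and -2.01 at DN3 against DN1. Ifit2, the neighbouring gene on the chromosome, had a log2 fold change of 0.28 at DN2 and was called higher. Ifit1, which binds the caps of viral RNA, was not called, with a median signal of 560.5 at DN1, 439.7 at DN2 and 517 at DN3.

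The OAS genes make the messenger 2-5A or, in the Oasl genes, are relatives of those enzymes. Oas2 had a median signal of 135.8 at DN1, 320.4 at DN2 and 289.2 at DN3, and rose by 1.25 at DN2 (SE 0.151, limma adjusted p = 6.25e-06). Oas3 was lower, with a median signal of 301.3 at DN1, 163.6 at DN2 and 157.6 at DN3, and fell by 1.00 at DN2 (SE 0.132). Oasl2 and Oasl1, which lie near each other with 1 gene between them, both rose, by 1.07 and 0.46. Oas1a was not called, with a median signal of 1006 at DN1, 1020.0 at DN2 and 1031 at DN3. Mx1, a GTPase that restricts viruses in the nucleus, fell by 1.41 (SE 0.163, limma adjusted p = 4.19e-06), while Mx2 was not called.

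Of the other effectors, 3 were higher at DN2 and 5 lower. Samd9l, which restricts poxviruses, had a median signal of 2620.0 at DN1, 994.5 at DN2 and 1082 at DN3. It fell by 1.20 at DN2 (SE 0.135, limma adjusted p = 3.08e-06). Rsad2 (viperin), which makes a chain-terminating nucleotide, and Cmpk2, a nucleotide kinase, are neighbours on opposite strands with no gene between them, and fell by 1.12 and 1.05 at DN2. By the brightest probe sets, Cmpk2 was also the 1 gene called lower at DN3 than at DN2. Lgals3bp and Ifi35 fell by 0.63 and 0.44. Bst2 (tetherin), which holds budding virus at the membrane, the exonuclease Isg20 and the chaperone Rtp4 rose by 0.67, 0.67 and 0.44.

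The ISG15 and ADP-ribosylation genes held some of the clearest rises. Dtx3l and Parp9, an E3 ligase and its ADP-ribosyltransferase partner that act as 1 complex, both rose. Dtx3l had signals of 794.5 to 1193 at DN1, 1783 to 2163 at DN2 and 1879 to 2492 at DN3, so the DN1 arrays did not overlap the rest. Its log2 fold change was 1.14 at DN2 (SE 0.0707, limma adjusted p = 9.8e-09), and Parp9 had 0.85 (SE 0.0831, limma adjusted p = 7.51e-07). Parp14, a macrodomain relative, was not called at DN2 but was higher at DN3 than at DN1 by 0.45. Usp18, which removes ISG15 and damps the receptor, fell by 0.26 (SE 0.0661, limma adjusted p = 0.0032), a direction that turned to 0.08 when arrays were centred on the median. Herc6, the mouse ligase for ISG15, rose by 0.20 by its brightest probe set, but another of its probe sets fell by 0.52.

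Both chemokines of the list, which bind CXCR3, a receptor of activated T and NK cells, were lower at DN2. Cxcl10 had signals of 79.3, 70.1, 143.6 and 104.2 in TLX1 pools 1 to 4 and of 52.6, 81.9, 33.7 and 130.6 in control pools 1 to 4 at DN1. At DN2 it had 16.3, 16.9, 22.9 and 17.4 in TLX1 pools and 10.4, 19.8, 9.81 and 12.2 in control pools. It fell by 2.39 at DN2 (SE 0.426, limma adjusted p = 0.000225) and by 3.63 at DN3 (SE 0.426, limma adjusted p = 4.84e-06). Its DN3 signals of 1.12 to 14.6 lie below the median signals of the arrays, which ran over 15.1 to 24.3, and its DN2 signals near them, so the size of the fall depends on values near the lower end of the array. Cxcl11 was near that end at each stage, with median signals of 13.1 at DN1, 6.12 at DN2 and 10.1 at DN3. It fell by 1.39 at DN2, with differences within pools that ran over -2.87 to -0.052. The fall was larger in control pools, since the log2 fold change of TLX1 against control was 0.64 at DN1 and 2.53 at DN2. This difference between genotypes was not called. By the brightest probe sets Cxcl11 was the 1 gene called higher at DN3 than at DN2. The size of these changes is uncertain for the same reason. Fitted without the other genotype, the log2 fold change at DN3 against DN2 was -0.17 in TLX1 pools (limma adjusted p = 0.798) and 2.41 in control pools (limma adjusted p = 0.0192). The fit of all 24 arrays gave the same 2 fold changes with adjusted p of 0.815 and 0.0029.

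Of the genes for antigen processing and the GTPases that respond mainly to interferon gamma, 4 were higher at DN2, 1 lower and 2 not called. Iigp1, a GTPase that attacks the vacuoles of parasites, had signals of 482, 288, 721.3 and 278 in TLX1 pools 1 to 4 and of 428, 400.8, 119.5 and 439.8 in control pools 1 to 4 at DN1. At DN2 it had 1431, 1390.0, 1988 and 954 in TLX1 pools and 1389, 978, 780.2 and 1284 in control pools. At DN3 it had 1778, 1707, 2185 and 1364 in TLX1 pools and 1663, 1383, 866.1 and 1481 in control pools. Each DN2 and DN3 array lay above every DN1 array. The log2 fold change was 1.79 at DN2 (SE 0.141, limma adjusted p = 9.7e-08) and 2.09 at DN3, the highest of the 40 genes at both stages. Without TLX1 pool 2 and control pool 3 it was 1.56 at DN2. Psmb9 and Psmb8, the immunoproteasome subunits that flank the peptide transporter gene Tap1, rose by 0.39 (SE 0.0686) and 0.29 (SE 0.066), and Tap1 itself was not called. Gbp3 rose by 0.27, Igtp fell by 0.27 and Gbp2 was not called.

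Little of the pattern differed between DN2 and DN3. By the brightest probe sets, only Cxcl11 (1.12, SE 0.239, limma adjusted p = 0.00979) and Cmpk2 (-0.57, SE 0.161, limma adjusted p = 0.0376) were called at DN3 against DN2, and Cmpk2 lost the call without TLX1 pool 1, 2, 3 or 4 or control pool 1 or 4. A dimmer probe set of Zbp1 was also called higher (0.63, SE 0.0955, limma adjusted p = 0.00117). The brightest one of Zbp1 had 0.26 and was not called. At this step 11% of all probe sets were called, with 6.93% higher and 4.07% lower. In all 8 pools, 2 genes were higher and 6 lower, against 9.7% and 6.75% of all probe sets. Against DN1, 17 genes were higher at DN3 and 13 lower, where 55.1% of all probe sets were called, 30.1% higher and 25% lower. In all 8 pools, 9 were higher and 10 lower, against 20.2% and 18.6%. Of the genes called higher, 16 were so at both DN2 and DN3 against DN1, and 13 were lower at both. Both contrasts use the same DN1 arrays. No gene was called in opposite directions. The median log2 fold changes were 0.011 at DN3 against DN2 and 0.125 at DN3 against DN1, against 0.075 and 0.038 over all probe sets.

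In the fit of all 24 arrays, the stages were also compared within each genotype. In TLX1 pools 11 genes were higher at DN2 and 13 lower, with 47.9% of all probe sets called, and in control pools 16 were higher and 14 lower, with 44.7% called. Of these, 11 were higher and 12 lower in both genotypes, and none was called in opposite directions.

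Markers of other cells differed over the same stages, and their part in the stage results was not tested. At DN2 against DN1, 8 of 8 NK cell markers (median log2 fold change -6.50), 6 of 6 dendritic cell markers (-3.13), 5 of 7 macrophage markers (-1.47) and 4 of 5 plasmacytoid dendritic cell markers (-4.02) were lower. Some of these markers passed the filter only through their DN1 signals, so a lower value at DN2 was largely fixed for them. Tbx21 had median signals of 759.0 at DN1 and 1.85 at DN2, and Klk1 had 816.5 and 2.5. The size of such falls rests on values near the floor of 1. Flt3, Xcr1 and Cd14 did not pass the filter and were not tested. The summed signal of the NK list was 14090.0 to 34280.0 at DN1, 4334 to 5765 at DN2 and 3599 to 5235 at DN3. That of the dendritic list was 3317 to 9526 at DN1, 454.2 to 1011 at DN2 and 222.8 to 317.2 at DN3, and that of the macrophage list was 2766 to 10310.0, 932.1 to 1292 and 551.0 to 930.7. The sum of the plasmacytoid list was 1090.0 to 2856 at DN1, 756.4 to 889.3 at DN2 and 701.2 to 1181 at DN3. Members of 1 list differed. The plasmacytoid gene Tcf4 went the other way, with signals of 252.1 to 514.4 at DN1 and 548.4 to 719.8 at DN2. The NK gene Ncr1 was at 1333 to 3883 at DN1 and at 7.28 to 16.4 at DN2, while the granzyme gene Gzma and Nkg7 were still at 2343 to 3037 and 1852 to 2569 at DN2. The macrophage gene C1qa was at 67.7 to 218.2 at DN1, 53.9 to 213.3 at DN2 and 0.447 to 0.871 at DN3, while Lyz2 was still at 505.9 to 895.5 at DN3. The stromal list and the mast cell and basophil list also held genes that were higher at DN2. The summed signal of the stromal list was 212.5 to 334.7 at DN1, 1334 to 2206 at DN2 and 1223 to 3024 at DN3, with Epcam and Pdgfrb called higher and the stromal collagen gene Col1a1 at 1.02 to 11.1 at the 3 stages. The summed signal of the mast cell and basophil list was 759.6 to 2208 at DN1, 1266 to 2240.0 at DN2 and 320.1 to 640.0 at DN3, with Cpa3 called higher at DN2 and 3 others lower. In such bulk samples, fewer cells of a type and less RNA per cell cannot be told apart.

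Most genes for the making, sensing and regulation of the interferon signal were lower at DN2. Of 27 tested genes for interferons, their receptors, kinases, sensors and regulators, 21 were lower at DN2 than at DN1, none was higher and 6 were not called. Of all probe sets, 31.2% were lower and 28.5% higher. The type II receptor genes Ifngr1 and Ifngr2 had log2 fold changes of -1.33 and -1.25, the kinases Tyk2 and Jak1 of -1.15 and -0.86, and the type I receptor gene Ifnar1 of -0.41. Irf8, a factor of myeloid cells, had -4.67 (SE 0.132, limma adjusted p = 2.15e-11) and Ifng, which NK cells make, had -4.72. At DN3 against DN2, Socs3, Ifngr1 and Ikbke were higher and Cgas was lower (-0.87, limma adjusted p = 0.000214). Of 25 other interferon-inducible genes, 6 were higher at DN2 and 14 lower. Tap2, Ifitm3 and Ly6e had 1.47, 1.44 and 1.09, while Ifi30 and Ifi27l2a had -3.04 and -1.83.

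Between genotypes, most of the interferon-stimulated genes had a small positive fold change in TLX1 against control thymocytes, and no single gene was called. At DN1, DN2 and DN3, 0 of 40 passed an adjusted p of 0.05 (limma, 4 pools against 4 at each stage), where 0.0037%, 0.0037% and 0.0185% of all probe sets did. At an unadjusted p under 0.05, 3, 5 and 4 genes were higher and 0 lower, against 1.03%, 1.45% and 4.24% of all probe sets higher. The thresholds of the study's methods (1.4-fold or more, with an unadjusted p of 0.05 or less) were applied to the limma fit. The study used a t-test, by which fewer genes passed at DN2 and DN3. In the limma fit 3, 5 and 3 were higher at these thresholds, against 0.914%, 0.925% and 3.33%. Both sets of limma counts include genes of the study's lists, which came from the same arrays, so the shares of all probe sets are not an independent yardstick. These genes are Oas2 and Oasl2 at DN1, Ifit3, Rsad2 and Usp18 at DN2, and Ifit3, Stat2 and Usp18 at DN3. The log2 fold change was positive for 36 of 40 genes at each stage, against 51.5%, 47% and 51.6% of all probe sets. The medians were 0.35, 0.21 and 0.24, against 0.008, -0.017 and 0.009 over all probe sets. Over the 34 genes outside the study's lists they were 0.27, 0.20 and 0.23, with 30 positive at each stage. These 34 were also listed with results of these data in view, and many of the genes varied together between pools. Their counts and medians are thus a description only.

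**Figure D3:**
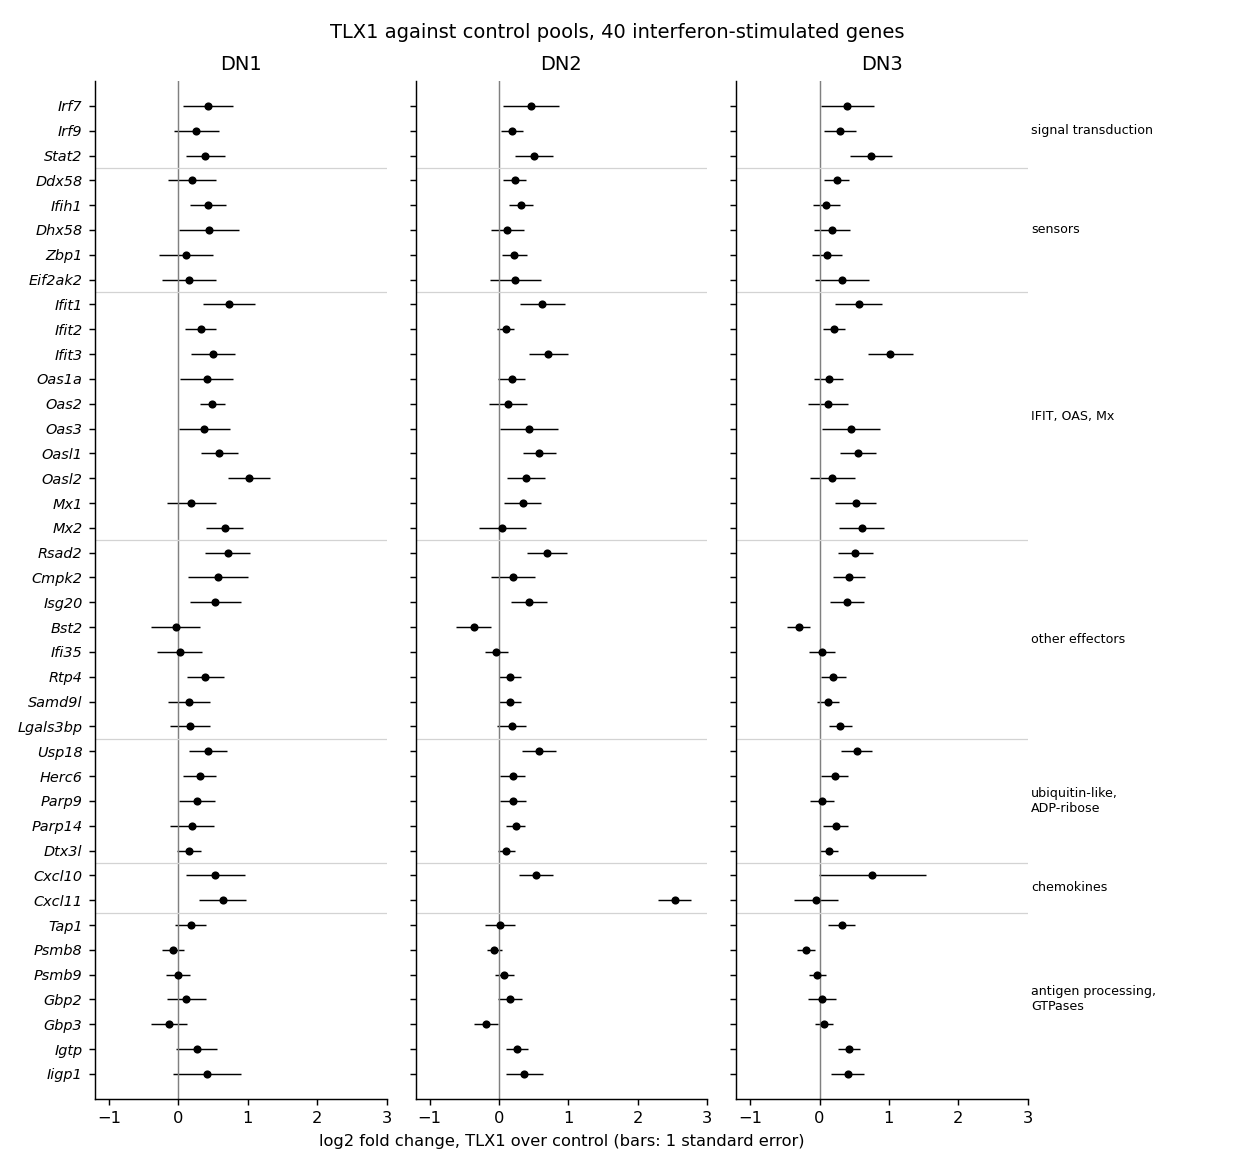
Log2 fold changes of TLX1 against control (x axis) at DN1, DN2 and DN3 for the 40 interferon-stimulated genes (y axis, grouped by role), with standard errors as bars. Most points lie to the right of 0, with 36 of 40 positive at each stage, and Cxcl11 at DN2 lies apart at 2.53.

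This direction held by role in the IFIT, OAS and Mx families, where 10 of 10 genes were positive at each stage with medians of 0.49, 0.37 and 0.49. All 3 transducers, all 5 sensors and all 5 measured genes of the ISG15 and ADP-ribosylation group were positive at each stage. The exceptions were Bst2, Cxcl11, Gbp3, Ifi35, Psmb8 and Psmb9, each negative at 1 stage or more. Of the 25 other inducible genes, 17, 13 and 15 were positive at DN1, DN2 and DN3.

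Every TLX1 pool lay above every control pool for 2 genes at DN1, 1 at DN2 and 1 at DN3, against 0.725%, 1.39% and 2.64% of all probe sets. At DN1 these were Oas2 and Oasl2, both in the study's lists. Oas2 had signals of 163.5, 138.3, 150.0 and 202.1 in TLX1 pools 1 to 4, against 133.3, 117.1, 100.9 and 112.4 in control pools 1 to 4. Oasl2 had 85.1, 62.6, 68.3 and 146.8 in TLX1 pools, against 57.8, 33.9, 44.4 and 37.2 in control pools. The lowest TLX1 pool of each was close to the highest control pool, and the log2 fold changes were 0.49 and 1.01. At DN1 the other genes with the smallest p were Mx2 (0.66, SE 0.262) and Oasl1 (0.59), for which the genotypes overlapped. At DN3 the gene was Ifit3, also in the study's lists, with a log2 fold change of 1.02. Its lowest TLX1 signal of 73.0 stood beside a highest control signal of 69.6.

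At DN2 the gene was Cxcl11, which had 12.3, 9.25, 12.04 and 16.6 in TLX1 pools 1 to 4, against 2.09, 1.79, 1.81 and 3.0 in control pools 1 to 4. The log2 fold change was 2.53 (SE 0.234, limma adjusted p = 0.0515), the lowest adjusted p of the 40 genes in the TLX1 comparisons, and over the alternatives this p ran over 0.0104 to 0.9995. All these signals but that of TLX1 pool 4 were below the lowest of the arrays' median signals, which ran over 15.1 to 24.3. With an offset of 32 added before the logarithm the log2 fold change was 0.38. At DN1 Cxcl11 had 9.59 to 27.1 in TLX1 pools, against 7.80 to 13.2 in control pools, and at DN3 it had 7.21 to 15.2 in TLX1 pools, against 8.99 to 18.6 in control pools. The genotypes overlapped at both of those stages. Of the genes outside the study's lists, Igtp had 0.43 at DN3 (SE 0.162, limma adjusted p = 0.768). Rsad2 had 0.71, 0.69 and 0.52 at DN1, DN2 and DN3, and Usp18 had 0.42, 0.58 and 0.54.

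**Figure D4:**
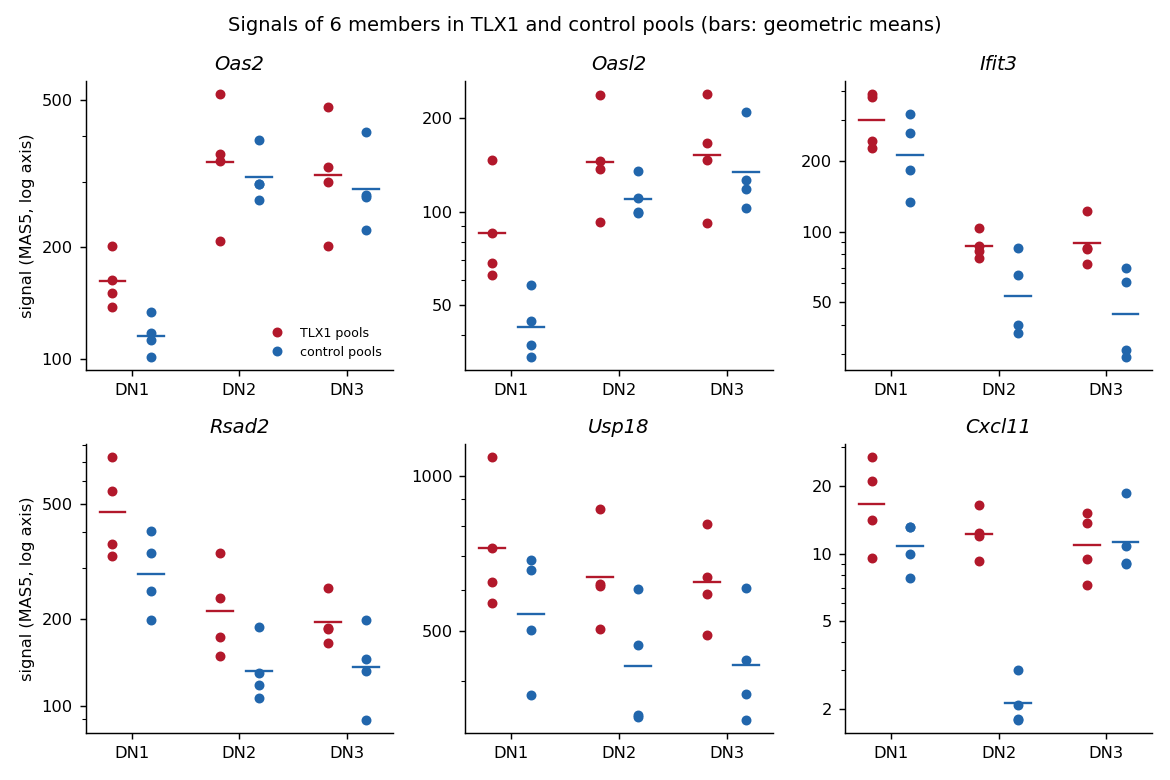
Signals (y axis, log scale) of 6 interferon-stimulated genes in the 4 TLX1 pools (red) and, to their right, the 4 control pools (blue) at each stage (x axis), with 1 point per pool and bars at the geometric means. Cxcl11 at DN2 lies well apart between genotypes, at 9.25 or more in TLX1 pools and at 3.0 or less in control pools.

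No gene was called for a difference in its TLX1 effect between stages, in a test that called no probe set at all. For DN2 minus DN1, DN3 minus DN2 and DN3 minus DN1, 0 of 40 were called (limma), as were 0% of all probe sets, and 1, 2 and 1 had an unadjusted p under 0.05. Cxcl11, with a TLX1 effect of 2.53 at DN2 and -0.05 at DN3, had the difference of -2.58 (SE 0.477, limma adjusted p = 0.99993).

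The pools of 1 genotype differed among themselves. The deviation of a pool is the median over the 40 genes of its log2 signal minus the mean of the 8 arrays of that stage. At DN1, DN2 and DN3 it was 0.19, 0.10 and 0.16 in TLX1 pool 1, -0.19, 0.15 and 0.09 in TLX1 pool 2, 0.46, 0.37 and 0.31 in TLX1 pool 3, and 0.18, -0.10 and -0.06 in TLX1 pool 4. It was 0.12, 0.12 and 0.20 in control pool 1, 0.01, -0.21 and -0.16 in control pool 2, -0.79, -0.30 and -0.44 in control pool 3, and 0.07, -0.02 and 0.02 in control pool 4. TLX1 pool 3 was thus the highest and control pool 3 the lowest at each stage, and the other pools of the genotypes overlapped. In TLX1 pool 3, 39, 36 and 34 of 40 genes were above the stage mean, and in control pool 3, 38, 36 and 36 were below it.

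**Figure D5:**
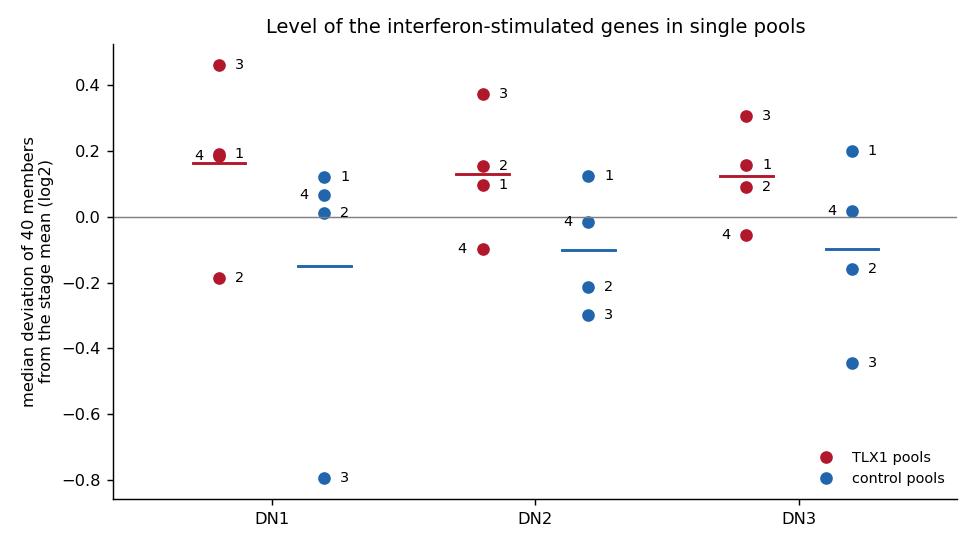
Median deviation of the 40 interferon-stimulated genes from the mean of their stage (y axis, log2) for each TLX1 pool (red) and each control pool (blue) at DN1, DN2 and DN3 (x axis), with 1 numbered point per pool and bars at the genotype means. TLX1 pool 3 is highest and control pool 3 lowest at each stage, and control pool 3 reaches -0.79 at DN1.

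Without control pool 3 the number of genes with a positive TLX1 fold change was 25, 33 and 28 of 40 at DN1, DN2 and DN3, with medians of 0.13, 0.17 and 0.12. Without TLX1 pool 3 it was 31, 33 and 35, with medians of 0.20, 0.13 and 0.19. Without TLX1 pool 2 and control pool 3, whose DN1 arrays had high Rag1, it was 32, 34 and 29, with medians of 0.24, 0.17 and 0.13. Within female pools the medians were 0.14, 0.08 and 0.12, and within male pools, which hold both pools numbered 3, they were 0.42, 0.35 and 0.39. The sums of other-cell markers followed these pools for some lists and stages and not for others. TLX1 pool 3 had the highest dendritic and plasmacytoid sums at DN1, 9526 and 2856, and the highest dendritic and macrophage sums at DN2, 1011 and 1292. It had the lowest macrophage sum at DN1, 2766, and the lowest NK sum at DN3, 3599. Control pool 3 had the lowest NK sum at DN1, 14090.0, and the lowest dendritic sum at DN2, 454.2. At DN3 it had the lowest macrophage and plasmacytoid sums, 551.0 and 701.2. Its NK sums were the highest at DN2 and DN3, 5765 and 5235. After DN1 some of these sums rest on 1 or 2 genes. Gzma and Nkg7 held most of the NK sums at DN2 and DN3, where Ncr1 had medians of 11.2 and 5.42. At DN3 Lyz2 (median 696.2) held most of the macrophage sum, and Tcf4 and Spib (659.2 and 330.5) most of the plasmacytoid sum. Such sums are not a measure of cell number. The part of other cells in the pools' values was not tested. The 3'/5' index of RNA from the control probe sets of Actb and Gapdh also differed between genotypes at DN3, at 0.101 to 0.339 in TLX1 and 0.501 to 0.572 in control arrays (exact permutation test, two-sided p = 0.0286, the smallest that 4 against 4 allows, with 0.0857 at DN1 and 0.0571 at DN2). Control pool 3 had the highest index at DN2, 0.9905, against 0.4406 in control pool 4, the next highest. At DN1 and DN3 it had the lowest index of the control pools, 0.0381 and 0.5014. A fit with the index as a term, chosen after seeing the data, gave median TLX1 fold changes over the 40 genes of 0.75, 0.085 and -0.11 (log2) for DN1, DN2 and DN3.

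Within a stage and genotype, deviations from the mean of the 4 pools were alike for many of the genes. Their mean pairwise correlation over the 24 arrays was 0.418, against 0.0132 over all probe sets, where the 3 arrays of a pool share its mice. By correlation with the median of the others, the most alike were Dhx58 (0.95), Iigp1 (0.93), Parp14 (0.92), Samd9l (0.91) and Zbp1 (0.91), a set with genes that rose and genes that fell at DN2. Those least like it were Ifit2 (-0.36), Cxcl11 (-0.02), Cxcl10 (0.08) and Bst2 (0.12). The median SD of the deviations was 0.373, against 0.394 over all probe sets.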

How the data were processed

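Gene expression was measured on 24 Affymetrix mouse arrays. The authors deposited intensity values on a linear scale, which the submitters' processing notes name as MAS5 signals from the Affymetrix Expression Console. The 2% trimmed mean of each array is 150. Array number limits the precision. Control probe sets (64 of 45101) were left out, and signals were floored at 1 and put on the log2 scale. The 60% of probe sets of highest mean log2 signal were kept (27022, geometric mean signal of 9.02 or more).

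limma 3.58.1 in R 4.3.3 was used (lmFit, eBayes), with Benjamini-Hochberg adjustment over all kept probe sets. Genotypes were compared within each stage on 8 arrays, and stages in 1 fit of 24 arrays with the pool as a block. The fit was tested on simulated data. Replicates are pools of mice, and same-numbered pools of the genotypes were not paired, since their deviations did not correlate in each pair. Probe sets took the gene of GEO's platform annotation, with 34945 having 1 gene, 932 several and 9160 none named.

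The members and lists were chosen with earlier results of these data known. All members are accounted for by role. Values are named for those called (at most 8 by p in each direction), for the 4 of smallest p where fewer were called, for the brightest of each role, and for 7 genes that the study or earlier results name. Alternatives were other normalizations (quantile, median centring), filters, an offset, blocks, sex, array weights, the methods' t-test and leaving out pools. Added after seeing the data were a fit with the RNA index (3'/5') as covariate and medians without the 6 genes of the study's lists.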

Additional observations from a re-analysis of the deposited data

Results flagged for a closer look

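In 11 of 246 groups of 4 pools (4.47%), the pool at one end lay farther from the others than Dixon's 95% critical value allows. Chance flags about 1 in 20 groups. Of these, 6 were in the DN1 array of control pool 3. There the median deviation of the 40 genes was -0.79, against 0.0127 to 0.119 in the other control pools. In that array Ifih1 was lowest at 228.7, against 413.5 to 460.2, Samd9l at 1166, against 2614 to 2635, Herc6 at 304.9, against 495.4 to 509.6, and Iigp1 at 119.5, against 400.8 to 439.8. Ifit2 was highest in the same array, at 431.0, against 250.3 to 273.1.

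In the DN3 array of TLX1 pool 4, Oas3 was at 73.98, against 199.6 to 219.1 in the other TLX1 pools, and Parp9 at 1656, against 2119 to 2193. In the DN2 array of control pool 2, Cmpk2 was at 69.09, against 130.6 to 135.0, and Samd9l at 770.9, against 974.1 to 1016. Parp9 was highest at DN2 in control pool 1, at 2085, against 1585 to 1637. The causes were not tested.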

How the results depend on the processing

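Leaving out each pool in turn gave 31 to 34 called genes at DN2 against DN1 and 27 to 31 at DN3 against DN1. Their medians ran over -0.023 to 0.086 and 0.077 to 0.170. DN3 against DN2 is thin, with 1 to 5 calls (5 without control pool 3) and medians of -0.012 to 0.037 when a pool was left out, 4 under median centring, 1 with no filter, with no replicate block or in control pools alone, 0 in TLX1 pools alone and 5 without control pool 3 and TLX1 pool 2. Median centring also gave medians of 0.37 for DN2 against DN1 and -0.14 for DN3 against DN2, since it moved the median of all probe sets to 0.29 and -0.077, and 74% of the probe sets called at DN2 were then higher, against 47.7% as reported and 58.7% with quantile normalization. Usp18 turned to 0.080 at DN2 under median centring (limma adjusted p = 0.419), and Cxcl11 to -0.17 at DN3 against DN2 in TLX1 pools alone (limma adjusted p = 0.798).

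At DN2, 1 gene (Cxcl11) was called for TLX1 against control with quantile normalization, median centring, no filter, a random pool block over 24 arrays, array weights, or without control pool 4. Leaving out a pool gave 0 to 1 calls at DN2 and 0 at DN1 and DN3, medians of 0.130 to 0.449, 0.132 to 0.322 and 0.120 to 0.351, and 1 to 6, 1 to 11 and 1 to 5 genes at the methods' thresholds, the 11 without TLX1 pool 4. At these thresholds DN2 had 3 genes with no filter, 2 with an offset of 32, and 1 without control pool 3 and TLX1 pool 2, with the replicate block or by the methods' t-test, and DN3 had 1, 2, 0, 2 and 1. After adjustment for the RNA index (3'/5'), the thresholds gave 14 genes at DN1, 2 at DN2 (1 higher, 1 lower) and 1 at DN3, with medians of 0.75, 0.085 and -0.11. That fit cannot separate the index from the genotype. The number of a pool did not pair the genotypes (same-numbered correlations of 0.127, -0.248, -0.345 and 0.482 at DN1), and the replicate block called 0 genes at each stage. The causes were not tested.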
